A study of Drosophila melanogaster with 15 samples.

Results

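The genes described here encode the DIP, dpr, beat and side immunoglobulin proteins of the cell surface. They were chosen by their FlyBase symbol, as every gene whose symbol starts with DIP- or beat-, is dpr followed by a number, or is side alone or followed by a hyphen. The rule found 54 of the 17490 genes in the count tables, namely 21 dpr, 14 beat, 11 DIP and 8 side genes. Of these, 50 passed the filter on low counts and were tested among 10358 genes.

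Members of these families recognise one another across the gap between cells. DIP proteins bind dpr proteins, and side proteins bind beat proteins, in selective pairs that have been studied mostly at the neuromuscular junction, in the visual system and during axon guidance of motor neurons. In the adult antenna, the olfactory receptor neurons, the support cells of the sensilla and glia lie side by side, and bulk RNA does not tell which of them express a member.

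RNA was sequenced from the third antennal segment of 7-day-old Drosophila melanogaster males, with 180 antennae from 90 flies pooled in each sample. Both control groups were white-eyed w1118 flies. The group-housed males (w1118 GH) had lived from eclosion in vials of 25 to 30 males, and the single-housed males (w1118 SH) had been isolated as pupae and had eclosed and aged alone. The other groups were all group housed. Or47b1 males were homozygous for a mutation of the pheromone receptor gene Or47b and also carried homozygous Or47b-GAL4 and UAS-mCD8GFP transgenes. Or67dGAL4 males were homozygous for a GAL4 insertion that disrupts the receptor gene Or67d and carried homozygous UAS-mCD8GFP. The fruLexA/fru4-40 males carried 2 different alleles of fruitless that together remove its male-specific FruM products. Each group had 3 samples, but the study used only replicates 2 and 3 of fruLexA/fru4-40. Nothing in the sources used here shows whether the flies of different samples were reared apart, so p-values measure the spread between these pools.

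The 14 samples held 8570425 to 14908299 counts each. Or47b stood at 0.555 to 0.859 RPKM in Or47b1 against 121 to 133 in w1118 GH, and Or67d at 0.0802 to 0.927 in Or67dGAL4 against 71.6 to 76.6, where RPKM is the count per kilobase of exon and per 1000000 counts of the scaled library. The eye-color gene white was at or near 0 in both w1118 groups, at 43.9 to 54.2 RPKM in Or47b1, at 179 to 235 in Or67dGAL4 and at 5.59 to 7.40 in fruLexA/fru4-40. The mutants therefore differed from w1118 in more than the named mutation, and an effect of the mutation cannot be told apart from one of the background or the transgenes. Markers of neurons (6 of 7 listed genes found), glia and support cells were present in every sample. Eye, muscle and second antennal segment markers were uneven. The eye gene ninaE was at 10.95, 37.19, 12.16 and 17.62 RPKM in replicate 3 of w1118 SH, Or47b1, Or67dGAL4 and fruLexA/fru4-40. It was at 0.0558 to 2.26 in the other fitted samples. Summed muscle markers were at 11.0 to 103 RPKM in w1118 GH, 3.09 to 11.5 in w1118 SH and 15.4 to 99.3 in the mutants. The part of other tissue in the members' levels was not tested. Of the 6 support-cell markers, 5 were called higher and 1 lower in Or47b1 against w1118 GH, 3 higher in Or67dGAL4 and 6 higher for fruLexA/fru4-40, with summed levels of 20890 to 21610, 18290 to 23200 and 23540 to 23980 RPKM against 14970 to 17220 in w1118 GH. The part of this in the members' levels was not tested, and in bulk samples fewer cells of a type cannot be told apart from less RNA per cell. Of the support-cell markers, the study also found lush, Obp28a, Obp83a and Obp83b in olfactory receptor neurons by single-cell data. The 4 olfactory co-receptor genes Orco, Ir25a, Ir8a and Ir76b were all called lower in Or67dGAL4 and in fruLexA/fru4-40 than in w1118 GH, and 2 of them in Or47b1. Their median log2 fold changes were -0.58, -0.50 and -0.14 in this order. The part of this decrease in members lower in the same mutants, such as dpr3, side-III and side-VI, was not tested. The third fruLexA/fru4-40 library, replicate 1, carries a quality warning in its label and stood apart. It held 5907543 counts, elav was at 71.5 RPKM there against 16.0 to 31.7 in the other 14, Orco was at 617 against 983 to 1640, and 26 members lay above all 14 other samples while 1 lay below them. It was left out of the fit, and calls lost with it are named, or counted among the alternatives, beside the genes described.

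The members spanned a wide range of levels. Over the 14 samples, 15 members averaged above 10 RPKM, 21 lay between 1 and 10, and 18 were below 1. Their median was 4.87 RPKM over the 50 tested members, against 13.0 RPKM over all tested genes. Most of the abundant members were dpr genes. The highest was dpr7 on chromosome 4, at 51.5, 59.4 and 58.1 RPKM in w1118 GH, 53.2, 46.8 and 58.2 in w1118 SH, 49.9, 59.8 and 46.2 in Or47b1 and 50.9, 72.9 and 64.8 in Or67dGAL4, with 66.6 and 50.5 in fruLexA/fru4-40. Its samples overlapped in all 5 groups, and it passed no comparison with w1118 GH (adjusted p from 0.43 to 0.816 in the 4 fits). The next levels were those of side-VIII, dpr20, dpr12 and dpr4, with means of 33.3, 29.3, 22.7 and 21.5 RPKM. Neighbours in this order were close, since the 14 samples of dpr12 (17.1 to 25.4 RPKM) overlapped those of dpr4 (17.3 to 27.3).

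**Figure D1:**
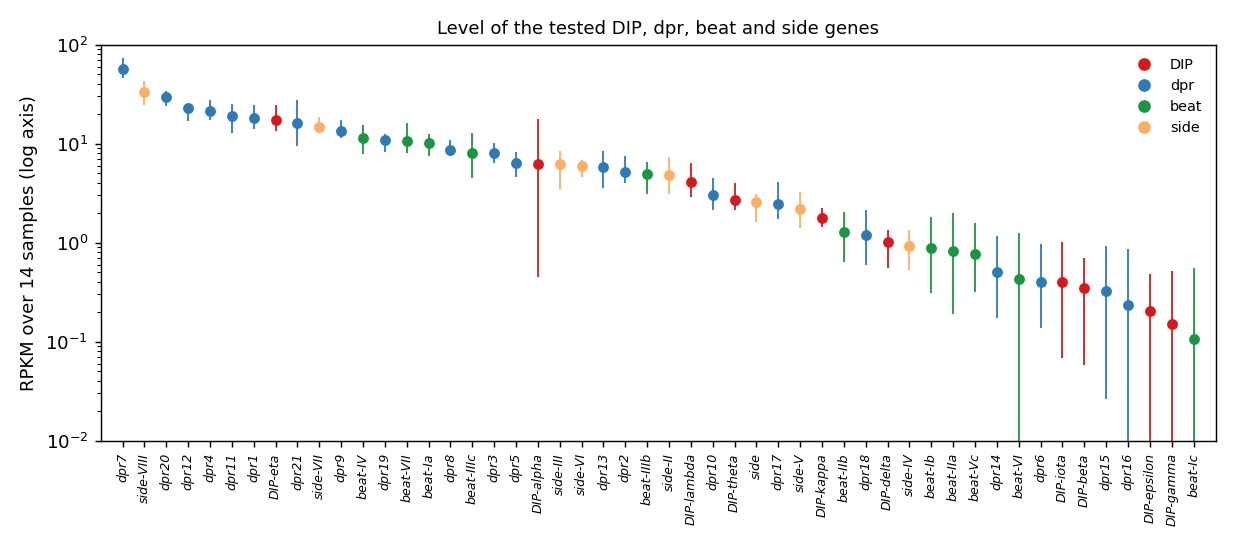
RPKM of the 50 tested members on a log axis. Points are means over 14 samples, lines run from the lowest to the highest sample (to the lower edge where a sample is at 0), and colors mark the families. The order runs from dpr7 at 56.4 RPKM to beat-Ic at 0.105, and the line of DIP-alpha is long for its level, from 0.449 to 17.6.

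DIP genes were mostly low. DIP-eta was the most abundant, at 13.5 to 24.3 RPKM, and DIP-lambda, DIP-theta, DIP-kappa and DIP-delta averaged 4.07, 2.72, 1.76 and 1.00 RPKM. The remaining 4 members were too low to be tested. DIP-zeta had at most 5 counts in a sample, beat-Va at most 11 and beat-Vb at most 9. The count of beat-IIIa was 0 in all 15 libraries, but its 4457 exon bases are identical to those of CG34106, which was at 0 as well, so that no level can be given for it.

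DIP-alpha showed the largest differences from w1118 GH of any member. DIP-alpha (FBgn0052791) lies on the minus strand of chromosome X at 3507245 to 3571649 in dm6, the build of the count tables, and codes for a receptor that binds dpr6 and dpr10. It was at 14.5, 14.99 and 17.6 RPKM in w1118 GH, 12.1, 12.3 and 10.7 in w1118 SH, 0.839, 0.835 and 0.804 in Or47b1 and 0.449, 0.630 and 0.551 in Or67dGAL4, with 0.558 and 0.556 in fruLexA/fru4-40. The underlying counts were 1478 to 2003 per sample in w1118 GH, 1079 to 1221 in w1118 SH, 63 to 85 in Or47b1, 37 to 60 in Or67dGAL4 and 52 to 53 in fruLexA/fru4-40. Every mutant sample thus lay far below every w1118 sample, and no sample was at 0.

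Against w1118 GH, DIP-alpha fell by 4.24 ± 0.11 (SE) on the log2 scale in Or47b1, an 18.9-fold lower level (adjusted p = 2.8e-11). The decrease was 28.7-fold in Or67dGAL4 (log2 fold change -4.84 ± 0.12, adjusted p = 3.05e-11). It was 28.1-fold in fruLexA/fru4-40 (log2 fold change -4.81 ± 0.14, adjusted p = 2.71e-10). By size of fold change it ranked 98, 35 and 31 among the genes that were lower in each of these 3 mutants. The calls held in all alternatives that were run, with log2 fold changes of -4.30 to -3.81 in Or47b1, -4.97 to -4.41 in Or67dGAL4 and -4.87 to -4.38 for fruLexA/fru4-40. Replicate 1 of fruLexA/fru4-40, with 43 counts, stood at 0.968 RPKM, above the other mutant samples and far below those of w1118.

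The remaining DIP-alpha level also differed among the mutants. Or67dGAL4 was lower than Or47b1 (log2 fold change -0.60 ± 0.14, adjusted p = 0.00596), and so was fruLexA/fru4-40 (log2 fold change -0.57 ± 0.15, adjusted p = 0.0122), with no overlap of samples in either case. Both calls were lost when all 15 samples entered (adjusted p = 0.0545 and 0.235), and the latter also when either fruLexA/fru4-40 sample was left out. Between fruLexA/fru4-40 and Or67dGAL4 the difference was 0.03 on the log2 scale, with a 95% interval of -0.31 to 0.37.

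Single housing went with a small decrease of DIP-alpha. The 3 w1118 SH samples lay below the 3 w1118 GH samples, at 10.7 to 12.3 against 14.5 to 17.6 RPKM (log2 fold change -0.43 ± 0.09, adjusted p = 0.0426). It was the 1 member called in this comparison, in which 0.994% of all tested genes were called. The call did not hold in the fit to these groups alone, without the filter on low counts, with all 15 samples, or without any 1 of 10 samples, among them w1118 GH replicates 2 and 3 and w1118 SH replicates 2 and 3. The fold change kept its direction throughout, at -0.47 to -0.34 on the log2 scale.

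The exons of DIP-alpha overlap in small part with those of CG2875 and ppk8. Of its 8983 exon bases, 158 (1.76%) are shared with CG2875 on the same strand and 106 (1.18%) with ppk8 on the opposite strand, and the libraries are not stranded. How reads in shared bases were assigned is not given in the sources used here. The part of such reads in the low DIP-alpha counts of the mutants was not tested. CG2875 was at 4.76, 4.14 and 4.65 RPKM in w1118 GH, 5.51, 5.42 and 5.12 in w1118 SH, 4.57, 4.51 and 4.70 in Or47b1 and 5.18, 5.20 and 3.93 in Or67dGAL4, with 7.55 and 5.98 in fruLexA/fru4-40. It did not fall with DIP-alpha and was higher in fruLexA/fru4-40 than in w1118 GH (log2 fold change 0.58 ± 0.14, adjusted p = 0.00797). ppk8, a gene of the pickpocket channel family, was at or below 0.171 RPKM in each sample. Among the 9 other tested genes within 50 kb of DIP-alpha, 1 was lower in Or47b1, and in Or67dGAL4 another 1 was lower and 1 higher. CG2875 was the 1 of them called for fruLexA/fru4-40, where it was higher.

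The partners of DIP-alpha did not pass the test in any comparison with w1118 GH. dpr10 was at 2.51, 2.70 and 3.75 RPKM in w1118 GH, 2.12, 2.39 and 2.46 in w1118 SH, 2.85, 2.80 and 3.91 in Or47b1 and 2.89, 4.47 and 3.49 in Or67dGAL4, with 3.52 and 2.44 in fruLexA/fru4-40. Its log2 fold changes against w1118 GH were 0.10 in Or47b1 (95% interval -0.36 to 0.55), 0.28 in Or67dGAL4 (-0.16 to 0.73) and 0.00 for fruLexA/fru4-40 (-0.50 to 0.51). dpr6 was low, at 0.138 to 0.963 RPKM and 8 to 53 counts per fitted sample. Its intervals were wide, at -0.25 to 1.69 in Or47b1, -1.15 to 0.84 in Or67dGAL4 and -0.68 to 1.48 in fruLexA/fru4-40. A decrease of either partner on the scale seen for DIP-alpha thus lay outside these intervals, while smaller differences could not be resolved.

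**Figure D2:**
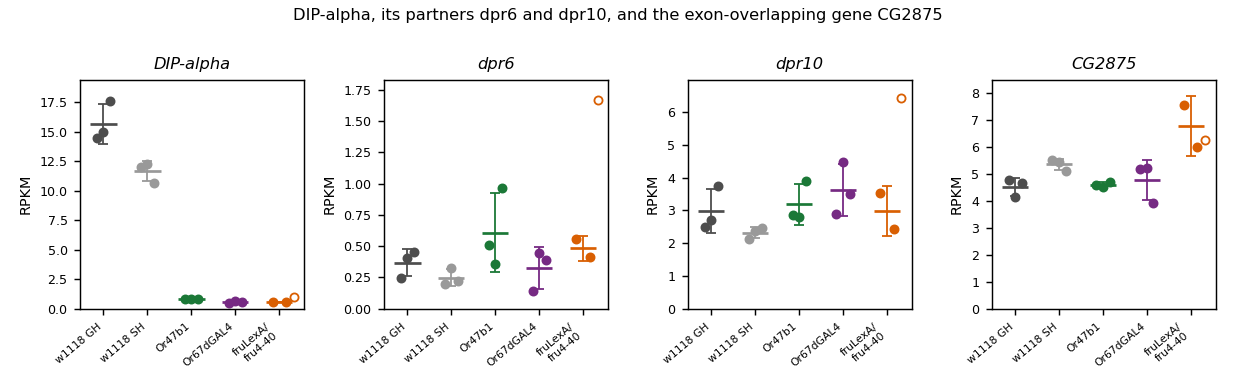
RPKM of DIP-alpha, its binding partners dpr6 and dpr10, and CG2875, which shares 158 exon bases with DIP-alpha. Filled points are samples, with the group mean and SD, and the open point is fruLexA/fru4-40 replicate 1, which was not in the fit. DIP-alpha lay below 1 RPKM in all mutant samples and at 10.7 to 17.6 in w1118, while CG2875 lay between 3.93 and 7.55 in all 14.

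The other called DIP genes were all higher in a mutant. DIP-lambda, at 3.22 to 4.03 RPKM in w1118 GH, was at 6.34, 5.97 and 4.66 in Or47b1 (log2 fold change 0.67 ± 0.17, adjusted p = 0.0114), and this call was lost without Or47b1 replicate 1 and with all 15 samples. DIP-beta was low, with 0.0983, 0.0863 and 0.321 RPKM in w1118 GH, 0.638, 0.442 and 0.586 in Or47b1, 0.351 to 0.482 in Or67dGAL4, and 0.698 and 0.473 in fruLexA/fru4-40. It was 3.31-fold higher in Or47b1 (log2 fold change 1.73 ± 0.47, adjusted p = 0.02) and 3.49-fold higher in fruLexA/fru4-40 (log2 fold change 1.80 ± 0.51, adjusted p = 0.0174). DIP-iota was at 0.0687 to 0.403 RPKM in w1118 GH and at 0.855 and 1.01 in fruLexA/fru4-40 (log2 fold change 2.03 ± 0.60, adjusted p = 0.0217). Its counts were only 4, 1 and 6 in w1118 GH and 12 and 14 in fruLexA/fru4-40. These calls of both low genes did not hold without w1118 GH replicate 1, and those in fruLexA/fru4-40 did not hold without its replicate 2. The DIP-iota call was lost in 5 of 22 alternatives. Among them were leaving out fruLexA/fru4-40 replicate 3, dropping the low-count filter and fitting the compared groups only. The other 6 tested DIP genes passed no comparison with w1118 GH.

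Across all members, few genes differed with housing and more with genotype. In Or47b1, 14 of the 50 tested members were called (28.0%), 9 higher and 5 lower, against 20.4% of all tested genes. In Or67dGAL4, 17 were called (34.0%), 8 higher and 9 lower, against 29.5%. In fruLexA/fru4-40, 14 were called (28.0%), 5 higher and 9 lower, against 30.8%. The members' shares were of the same order as those of all genes. The median log2 fold changes of the members were -0.13 with single housing, 0.18 in Or47b1, 0.08 in Or67dGAL4 and 0.08 for fruLexA/fru4-40, where those of all tested genes were 0.00, -0.01, -0.02 and 0.04. In all, 24 members were called in at least 1 comparison with w1118 GH, and 26 in none. Of the 24, 10 were called in 1 mutant, 7 in 2 and 7 in all 3, and 6 of these last 7 went the same way throughout. All comparisons share the 3 w1118 GH samples. The matching shares over all tested genes were not computed, so whether these overlaps are unusual for the members cannot be said.

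With fruLexA/fru4-40 replicate 1 in the fit, the counts of called members were 9 in Or47b1, 7 in Or67dGAL4 and 8 for fruLexA/fru4-40. Without w1118 GH replicate 1, 11 members were called in Or67dGAL4, and without fruLexA/fru4-40 replicate 2, 8 were called in fruLexA/fru4-40. Under the replicate block the counts were 15, 16 and 15.

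**Figure D3:**
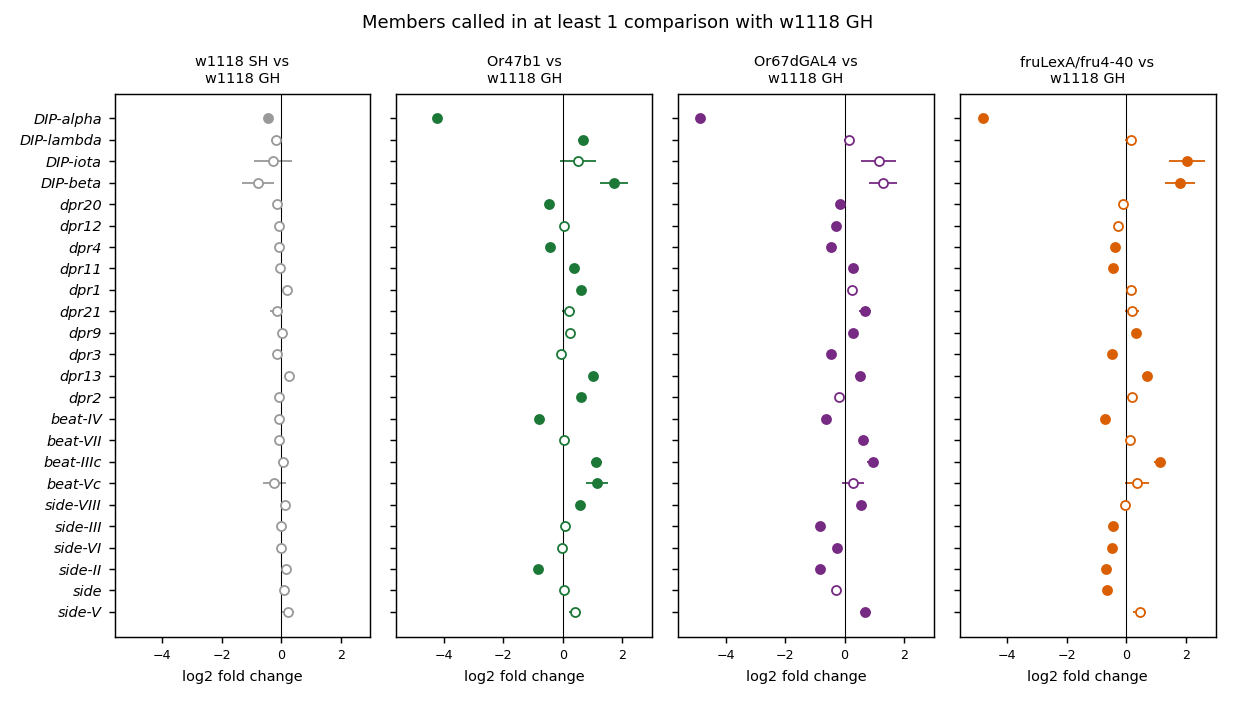
Log2 fold change against w1118 GH, with its SE, of the 24 members called in at least 1 of the 4 comparisons. Filled points passed an adjusted p of 0.05 and open points did not. DIP-alpha stands at -4.24 to -4.84 in the mutants, and the other called members lie between -0.85 and 2.03.

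In all 3 mutants, 4 members were lower. Beside DIP-alpha these were side-II, beat-IV and dpr4. side-II was at 6.54, 5.52 and 6.33 RPKM in w1118 GH, 6.04, 7.36 and 7.07 in w1118 SH, 3.18, 3.60 and 3.46 in Or47b1 and 3.31, 3.85 and 3.09 in Or67dGAL4, with 3.48 and 4.10 in fruLexA/fru4-40. All mutant samples lay below all w1118 samples, and the decrease was 1.80-fold in Or47b1 (log2 fold change -0.85 ± 0.11, adjusted p = 8.56e-05), 1.79-fold in Or67dGAL4 (log2 fold change -0.84 ± 0.11, adjusted p = 9.11e-05) and 1.62-fold for fruLexA/fru4-40 (log2 fold change -0.70 ± 0.12, adjusted p = 0.00105). beat-IV, a member of the receptor family that binds side proteins, was at 15.1, 14.5 and 15.2 RPKM in w1118 GH, 13.4, 14.3 and 14.8 in w1118 SH, 8.42, 8.48 and 8.78 in Or47b1 and 7.89, 10.4 and 10.6 in Or67dGAL4, with 8.36 and 9.91 in fruLexA/fru4-40. All 8 mutant samples lay below all 6 w1118 samples (log2 fold change -0.80 ± 0.10, adjusted p = 7.01e-05 in Or47b1, log2 fold change -0.64 ± 0.10, adjusted p = 0.000402 in Or67dGAL4, and log2 fold change -0.71 ± 0.11, adjusted p = 0.000582 in fruLexA/fru4-40). dpr4 was at 24.2, 25.4 and 27.3 RPKM in w1118 GH, 23.1, 24.4 and 24.8 in w1118 SH, 18.1, 19.5 and 18.9 in Or47b1 and 17.9, 20.9 and 17.3 in Or67dGAL4, with 19.5 and 19.6 in fruLexA/fru4-40. Its decrease was smaller, at 1.36-fold in Or47b1 (log2 fold change -0.44 ± 0.08, adjusted p = 0.00104), 1.37-fold in Or67dGAL4 (log2 fold change -0.45 ± 0.08, adjusted p = 0.000761) and 1.31-fold for fruLexA/fru4-40 (log2 fold change -0.39 ± 0.09, adjusted p = 0.00453). Of the dpr4 exon bases, 15.7% are shared with the antisense RNA asRNA:CR45056, and reads of both cannot be told apart. In fruLexA/fru4-40 replicate 1 these genes stood at 6.26 (side-II), 13.8 (beat-IV) and 22.5 RPKM (dpr4), closer to w1118 than the other mutant samples, and with that library side-II was not called in fruLexA/fru4-40 (adjusted p = 0.0777). The call of dpr4 there was also lost without replicate 2 (adjusted p = 0.051).

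In all 3 mutants, 2 members were higher. beat-IIIc was at 5.05, 4.48 and 5.28 RPKM in w1118 GH, 5.09, 5.12 and 5.38 in w1118 SH, 10.4, 12.1 and 9.85 in Or47b1 and 6.34, 10.7 and 11.6 in Or67dGAL4, with 12.8 and 8.99 in fruLexA/fru4-40. It was about 2-fold higher, with log2 fold changes of 1.13 ± 0.19 in Or47b1, 0.95 ± 0.19 in Or67dGAL4 and 1.14 ± 0.21 for fruLexA/fru4-40 (adjusted p = 0.000816, 0.0025 and 0.00141). dpr13 was at 3.60, 3.97 and 4.40 RPKM in w1118 GH, 4.54, 5.04 and 4.70 in w1118 SH, 8.13, 8.43 and 7.75 in Or47b1 and 4.18, 6.46 and 6.28 in Or67dGAL4, with 7.14 and 5.80 in fruLexA/fru4-40. The increase was 2.04-fold in Or47b1 (log2 fold change 1.03 ± 0.14, adjusted p = 0.000183) and 1.63-fold in fruLexA/fru4-40 (log2 fold change 0.70 ± 0.16, adjusted p = 0.0051). In Or67dGAL4 it was 1.42-fold (log2 fold change 0.51 ± 0.14, adjusted p = 0.019), where replicate 1 at 4.18 RPKM overlapped w1118 GH, and the call was lost in 6 of 22 alternatives, among them all 15 samples, w1118 SH as the reference and leaving out w1118 GH replicate 1 or Or67dGAL4 replicate 2 or 3. The dpr13 call in fruLexA/fru4-40 was lost without its replicate 2 (adjusted p = 0.0895). With all 15 samples, beat-IIIc was called in fruLexA/fru4-40 but not in Or47b1 (adjusted p = 0.0761) or Or67dGAL4 (adjusted p = 0.124). For both genes Or67dGAL4 replicate 1 was the lowest mutant sample, and it also had the lowest summed level of the 6 neuronal markers in its group, 516 RPKM against 722 and 740. The part of this in the result was not tested.

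**Figure D4:**
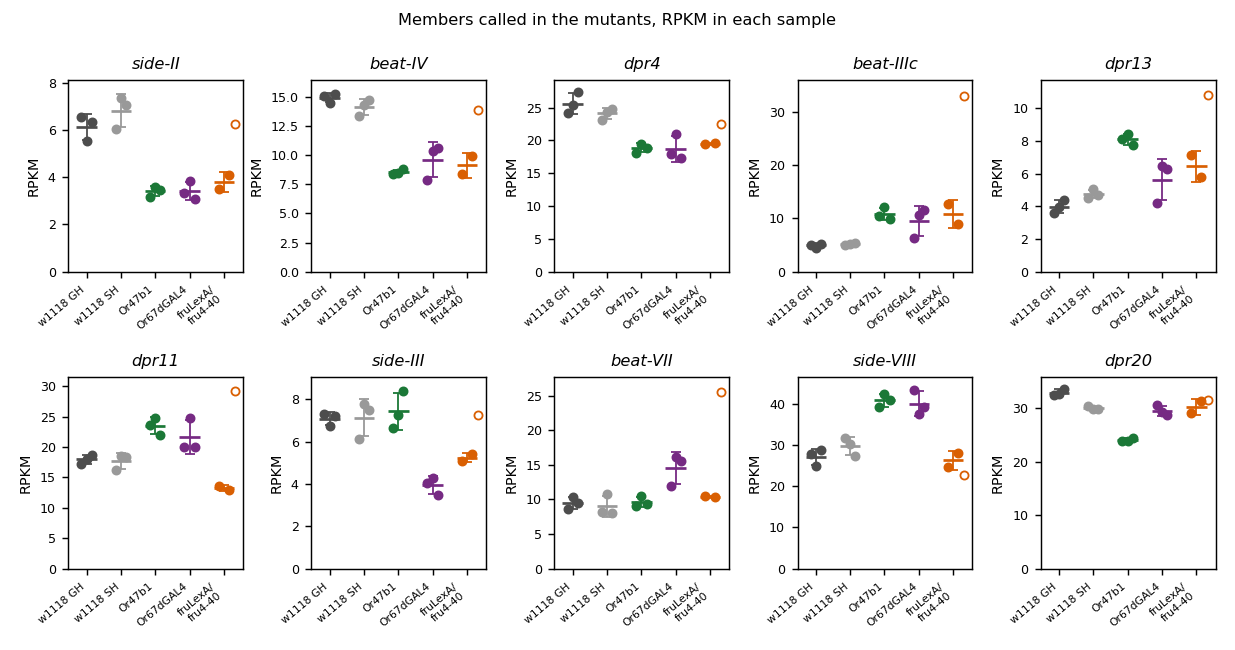
RPKM in each sample of 10 members called in the mutants. Filled points are the 14 fitted samples, with the group mean and SD, and open points are fruLexA/fru4-40 replicate 1. side-II, beat-IV and dpr4 are lower in all mutants, beat-IIIc is at 4.48 to 5.38 RPKM in w1118 and at 6.34 to 12.8 in the mutants, and dpr11 splits the mutants.

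One member moved in opposite directions among the mutants. dpr11, the partner of DIP-gamma in the visual system, was at 17.1, 18.1 and 18.6 RPKM in w1118 GH, 16.2, 18.5 and 18.3 in w1118 SH, 23.6, 24.9 and 22.0 in Or47b1 and 20.0, 24.8 and 20.0 in Or67dGAL4, with 13.6 and 12.9 in fruLexA/fru4-40. The Or47b1 samples were all higher than w1118 GH (log2 fold change 0.39 ± 0.09, adjusted p = 0.00738) and the fruLexA/fru4-40 samples all lower (log2 fold change -0.44 ± 0.10, adjusted p = 0.00593). The direct comparison of fruLexA/fru4-40 with Or47b1 gave a 1.78-fold lower level (log2 fold change -0.83 ± 0.10, adjusted p = 9.79e-05), and that with Or67dGAL4 a 1.64-fold lower level (log2 fold change -0.71 ± 0.10, adjusted p = 0.000416). The small increase in Or67dGAL4 (log2 fold change 0.27 ± 0.09, adjusted p = 0.0378) was lost in 9 of 22 alternatives. Replicate 1 of fruLexA/fru4-40 stood at 29.2 RPKM, the highest of all 15 libraries, and with it in the fit none of these dpr11 differences was called and the fold change against w1118 GH was 0.01. DIP-gamma itself was at 0.514 RPKM or less in all 14 samples.

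Among the side genes, 2 of 8 were called in Or47b1, 1 higher and 1 lower, against 20.4% of all tested genes. In Or67dGAL4, 5 of 8 were called, 2 higher and 3 lower, against 29.5%. In fruLexA/fru4-40, 4 of 8 were called, all of them lower, against 30.8%. side-VIII, the most abundant of them, was at 27.7, 24.9 and 28.7 RPKM in w1118 GH, 31.7, 30.2 and 27.4 in w1118 SH, 39.3, 42.4 and 40.9 in Or47b1 and 43.3, 37.5 and 39.3 in Or67dGAL4, with 24.6 and 27.9 in fruLexA/fru4-40. The receptor mutants lay above all other samples (1.51-fold, log2 fold change 0.59 ± 0.08, adjusted p = 0.000175 in Or47b1, and 1.48-fold, log2 fold change 0.56 ± 0.08, adjusted p = 0.00023 in Or67dGAL4). fruLexA/fru4-40 differed from both of them (log2 fold change -0.64 ± 0.09, adjusted p = 0.000317 against Or47b1, and log2 fold change -0.61 ± 0.09, adjusted p = 0.000605 against Or67dGAL4) but not detectably from w1118 GH. This pattern held with replicate 1 of fruLexA/fru4-40, which was at 22.6 RPKM.

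side-III had a different pattern. It was at 7.29, 6.72 and 7.19 RPKM in w1118 GH, 6.14, 7.77 and 7.47 in w1118 SH, 6.62, 7.25 and 8.38 in Or47b1 and 4.06, 4.29 and 3.46 in Or67dGAL4, with 5.09 and 5.39 in fruLexA/fru4-40. The level was 1.79-fold lower in Or67dGAL4 than in w1118 GH (log2 fold change -0.84 ± 0.11, adjusted p = 0.000108) and 1.88-fold lower than in Or47b1 (log2 fold change -0.91 ± 0.11, adjusted p = 6.43e-05), with no overlap of samples. The decrease in fruLexA/fru4-40 was 1.35-fold (log2 fold change -0.43 ± 0.12, adjusted p = 0.0175) and was lost without either of its samples and with all 15. Or47b1 did not differ detectably from w1118 GH (95% interval of the log2 fold change -0.16 to 0.30).

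side, the founding gene of the family and the ligand of beat-Ia on the muscle targets of motor axons, was called lower in fruLexA/fru4-40. It was at 2.49, 2.74 and 2.95 RPKM in w1118 GH, 3.08, 2.89 and 2.85 in w1118 SH, 2.75, 2.80 and 2.76 in Or47b1 and 1.85, 2.35 and 2.57 in Or67dGAL4, with 1.88 and 1.61 in fruLexA/fru4-40. The decrease was 1.56-fold (log2 fold change -0.64 ± 0.12, adjusted p = 0.00186), and the fruLexA/fru4-40 samples were also below those of Or47b1 (log2 fold change -0.67 ± 0.12, adjusted p = 0.00151). In Or67dGAL4 the log2 fold change against w1118 GH was -0.27 ± 0.11 (adjusted p = 0.0707), and the difference between fruLexA/fru4-40 and Or67dGAL4 (log2 fold change -0.37 ± 0.12, adjusted p = 0.0442) was lost in 13 of 21 alternatives. Its partner beat-Ia was at 10.1 to 10.8 RPKM in w1118 GH and at 9.78 and 7.47 in fruLexA/fru4-40, and its log2 fold change was -0.27 (95% interval -0.53 to 0.00, adjusted p = 0.112). With replicate 1, where side was at 3.86 RPKM, the calls of side against w1118 GH and Or47b1 were also lost (adjusted p = 0.553 and 0.543).

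side-VI was at 6.67, 5.92 and 6.87 RPKM in w1118 GH, 6.33, 6.71 and 6.15 in w1118 SH, 6.68, 6.16 and 6.16 in Or47b1 and 4.97, 6.09 and 5.25 in Or67dGAL4, with 4.65 and 4.65 in fruLexA/fru4-40. It was 1.39-fold lower in fruLexA/fru4-40 (log2 fold change -0.48 ± 0.09, adjusted p = 0.00224), a call lost with replicate 1 (10.2 RPKM, adjusted p = 0.912). The 1.19-fold decrease in Or67dGAL4 (log2 fold change -0.25 ± 0.08, adjusted p = 0.035) was lost in 11 of 22 alternatives. The partners of side-VI are the beat-V proteins. beat-Vc was at 0.466 to 0.654 RPKM in w1118 GH and at 1.31, 1.59 and 0.977 in Or47b1 (log2 fold change 1.14 ± 0.36, adjusted p = 0.0383), a call lost without 6 of the 14 samples in turn, w1118 GH replicates 1 and 3 and Or47b1 replicates 1 and 2 among them. beat-Va and beat-Vb were not tested.

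side-V was 1.62-fold higher in Or67dGAL4, at 2.31, 2.69 and 3.21 RPKM against 1.75, 1.39 and 1.91 in w1118 GH (log2 fold change 0.70 ± 0.19, adjusted p = 0.0165). Against w1118 SH, at 1.60, 2.09 and 2.27 RPKM, it was not called (adjusted p = 0.0779), nor was it without w1118 GH replicate 2 or Or67dGAL4 replicate 3. side-IV, at 0.532 to 1.34 RPKM, and its partner beat-IIb, at 0.634 to 2.04 RPKM, passed no comparison with w1118 GH, and 75.2% of the side-IV exon bases are shared with asRNA:CR17025 on the other strand. side-VII, at 13.0 to 18.7 RPKM, was not called in any comparison.

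Among the other called dpr genes, the Or47b1 samples of dpr20, dpr1 and dpr2 lay apart from all other fitted samples. For dpr1, however, the direct comparison of Or67dGAL4 with Or47b1 was not called. The calls of dpr1 and dpr2 in fruLexA/fru4-40 against Or47b1 were lost in 4 and 11 of 21 alternatives. dpr3 and dpr12 differed between Or47b1 and the other mutants. dpr9 and dpr21 were not called in any direct comparison of the mutants. dpr20 was lower in Or47b1, at 23.9, 23.9 and 24.4 RPKM against 28.8 to 33.7 in the other 11 samples (log2 fold change -0.45 ± 0.05, adjusted p = 4.59e-05 against w1118 GH). Or67dGAL4 and fruLexA/fru4-40 were both above Or47b1 (log2 fold change 0.29 ± 0.05, adjusted p = 0.00135 and log2 fold change 0.33 ± 0.06, adjusted p = 0.00135). The 1.11-fold decrease of dpr20 in Or67dGAL4 against w1118 GH (log2 fold change -0.16 ± 0.05, adjusted p = 0.0401) was lost in 17 of 22 alternatives.

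dpr1, the founding dpr gene, named for a defect in the proboscis response to salt, was at 14.6, 14.6 and 15.7 RPKM in w1118 GH, 14.98, 18.4 and 18.1 in w1118 SH, 22.0, 24.7 and 21.6 in Or47b1 and 14.1, 20.3 and 18.8 in Or67dGAL4, with 18.5 and 14.7 in fruLexA/fru4-40. Its Or47b1 samples lay above all 11 others, 1.52-fold above w1118 GH (log2 fold change 0.61 ± 0.13, adjusted p = 0.00457). dpr2 likewise was at 6.74, 7.27 and 7.47 RPKM in Or47b1 against 4.11 to 5.17 in w1118 GH, a 1.52-fold increase (log2 fold change 0.60 ± 0.13, adjusted p = 0.00459), and 4.03 to 4.16 in Or67dGAL4. Both Or47b1 calls were lost with fruLexA/fru4-40 replicate 1 in the fit, where dpr1 and dpr2 stood at 39.1 and 12.1 RPKM.

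dpr3 was lower in Or67dGAL4 and fruLexA/fru4-40, the mutants in which all olfactory co-receptor genes were called lower. It was at 8.68, 8.62 and 10.2 RPKM in w1118 GH, 8.75, 8.14 and 8.24 in w1118 SH, 9.57, 9.11 and 7.87 in Or47b1 and 6.42, 7.22 and 6.52 in Or67dGAL4, with 6.40 and 6.72 in fruLexA/fru4-40. The decrease was 1.36-fold in Or67dGAL4 (log2 fold change -0.44 ± 0.09, adjusted p = 0.0025) and 1.40-fold for fruLexA/fru4-40 (log2 fold change -0.48 ± 0.10, adjusted p = 0.00339), and both genotypes also lay below Or47b1 (log2 fold change -0.40 ± 0.09, adjusted p = 0.00575 and log2 fold change -0.43 ± 0.10, adjusted p = 0.00611). With replicate 1 of fruLexA/fru4-40 added, none of these 4 dpr3 calls held (adjusted p = 0.0752 to 0.444), and without its replicate 2 those of fruLexA/fru4-40 did not. dpr12, the partner of DIP-delta in the mushroom body, was at 17.1, 22.8 and 20.2 RPKM in Or67dGAL4 against 23.8 to 25.4 in w1118 GH (log2 fold change -0.29 ± 0.09, adjusted p = 0.0259), a call lost in 9 of 22 alternatives. DIP-delta was at 0.552 to 1.33 RPKM and did not pass the test.

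dpr21 was higher in Or67dGAL4, at 17.0, 27.6 and 22.2 RPKM against 14.6, 11.6 and 15.2 in w1118 GH (log2 fold change 0.69 ± 0.21, adjusted p = 0.0263). This call was lost without w1118 GH replicate 2, without Or67dGAL4 replicate 2 or 3 and with all 15 samples. dpr9 was about 1.2-fold higher in Or67dGAL4 (log2 fold change 0.29 ± 0.10, adjusted p = 0.034) and in fruLexA/fru4-40 (log2 fold change 0.31 ± 0.11, adjusted p = 0.039), with 6 and 9 of 22 alternatives without the call. In Or47b1, at 13.45 to 14.87 RPKM, dpr9 also lay above w1118 GH, at 11.74 to 12.44, but was not called. The increases in Or67dGAL4 were largest in its replicates 2 and 3. beat-VII was at 8.66, 10.3 and 9.46 RPKM in w1118 GH, 8.17, 10.7 and 8.10 in w1118 SH, 9.12, 10.5 and 9.30 in Or47b1 and 11.9, 16.2 and 15.6 in Or67dGAL4, with 10.5 and 10.4 in fruLexA/fru4-40. The Or67dGAL4 samples lay above all 11 others, 1.54-fold above w1118 GH (log2 fold change 0.62 ± 0.13, adjusted p = 0.00308) and 1.51-fold above Or47b1 (log2 fold change 0.60 ± 0.13, adjusted p = 0.00446). Both beat-VII calls were lost with all 15 samples (adjusted p = 0.197 and 0.233). The neuronal markers were summed at 722 and 740 RPKM in Or67dGAL4 replicates 2 and 3 against 519.5 to 569 in w1118 GH, and 1 of 6, elav, was called higher in Or67dGAL4. Their part in the levels of dpr21, dpr9 and beat-VII was not tested.

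Directly compared, the mutants differed in 15 members, a count whose share over all tested genes was not computed. Between Or67dGAL4 and Or47b1, 9 of 50 were called (2 higher, 7 lower) against 26.8% of all genes. Between fruLexA/fru4-40 and Or47b1, 13 were called (1 higher, 12 lower) against 31.6%. Between fruLexA/fru4-40 and Or67dGAL4, 5 were called (1 higher, 4 lower) against 24.2%. The last count fell to 2 without Or67dGAL4 replicate 3 or fruLexA/fru4-40 replicate 2 and to 3 without Or67dGAL4 replicate 2 or fruLexA/fru4-40 replicate 3. With replicate 1 of fruLexA/fru4-40 in the fit, the 3 counts were 2, 4 and 2. Most of the 12 lower members in fruLexA/fru4-40 against Or47b1 were those described above, namely DIP-alpha, DIP-lambda, dpr1, dpr2, dpr3, dpr11, dpr12, side, side-III, side-VI and side-VIII. The remaining one was DIP-gamma, which had few counts (0.514, 0.0979 and 0.480 RPKM in Or47b1, 0.0304 and 0 in fruLexA/fru4-40). In fruLexA/fru4-40 against Or47b1, the calls of DIP-lambda, dpr2, dpr12 and dpr1 were lost in 12, 11, 6 and 4 of 21 alternatives. For DIP-lambda the adjusted p was 0.0497 in the main fit. With all 15 samples, dpr1, dpr2 and side-VI changed sign in this comparison.

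Some members at low level varied widely between the samples of a group. beat-VI, dpr15, DIP-gamma and beat-Vb, singled out after their values were seen, had high samples in the same libraries. beat-VI was at 0.147, 0.257 and 0.731 RPKM in w1118 GH, at 0.0250, 0 and 0.161 in w1118 SH, at 0.776, 0.172 and 1.26 in Or47b1, at 0.400, 0.533 and 0.998 in Or67dGAL4, and at 0.401 and 0.163 in fruLexA/fru4-40. Replicate 3 of w1118 GH and replicates 1 and 3 of Or47b1 were thus high, and w1118 SH was low. Gad1, the GABA synthesis enzyme, had high samples in the same libraries. It was at 0.0704, 2.89 and 5.23 RPKM in w1118 GH, 0, 0 and 0.222 in w1118 SH, 8.16, 0.165 and 6.69 in Or47b1 and 2.40, 4.97 and 6.01 in Or67dGAL4, with 0.385 and 0.313 in fruLexA/fru4-40. Of the 7 central brain markers found, VGlut and Pdf were also high in w1118 GH replicate 3 and Or47b1 replicates 1 and 3, while ple and Vmat were at 19.5 RPKM or more in every sample. ple, the enzyme of dopamine synthesis, was highest in w1118 SH among the 14 samples, at 88.4 to 124 RPKM against 65.0 to 76.9 in w1118 GH, and Tdc2 and Dh44 were at 0.0946 to 0.836 and 0.369 to 1.77 RPKM. The part of RNA from other tissue in these low levels was not tested. Of the 4, beat-Vb was not tested, and the other 3 were not called against w1118 GH. Against w1118 SH, in which Gad1 was at or below 0.222 RPKM, beat-VI was called higher in Or47b1 and in Or67dGAL4 (log2 fold change 3.41 ± 0.97, adjusted p = 0.0187 and log2 fold change 3.22 ± 0.98, adjusted p = 0.0204), as were Gad1 and VGlut. DIP-gamma was called higher in Or47b1 (log2 fold change 3.49 ± 0.89, adjusted p = 0.0101).

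**Figure D5:**
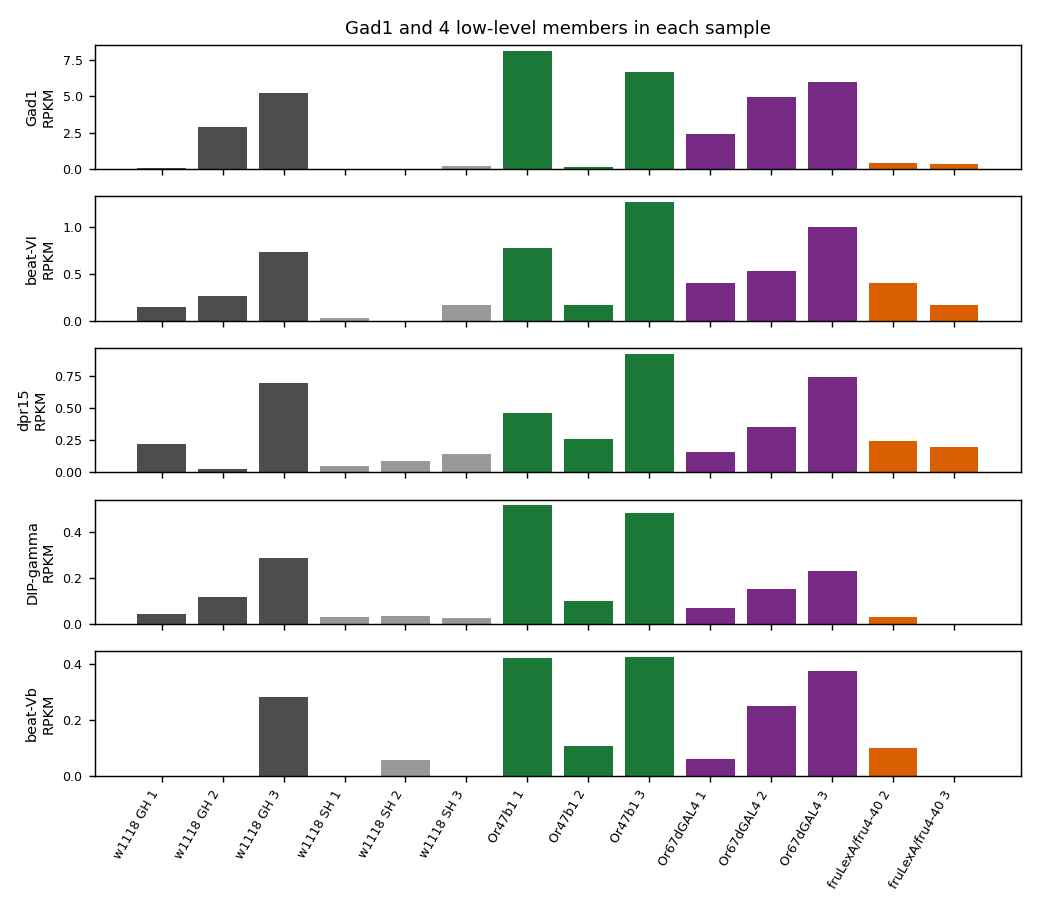
RPKM of Gad1 and of beat-VI, dpr15, DIP-gamma and beat-Vb in each of the 14 samples, on separate linear axes that start at 0. Bars are single samples, colored by group. The high bars of all 5 genes include w1118 GH replicate 3 (5.23 RPKM for Gad1) and Or47b1 replicate 3 (6.69), while all w1118 SH bars are low.

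With w1118 SH in place of w1118 GH as the reference, 21 members were called in Or47b1 (14 higher, 7 lower), 19 in Or67dGAL4 (10 and 9) and 16 for fruLexA/fru4-40 (6 and 10), where 28.4%, 37.5% and 34.0% of all tested genes were called. DIP-alpha, side-II, beat-IV, dpr4 and beat-IIIc were called in all 3 mutants against either reference in the same direction, and dpr11 in opposite directions. The DIP-alpha decreases were 14.1-fold, 21.3-fold and 20.9-fold against w1118 SH.

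Genes close to the called members were also examined. Of the other tested genes within 50 kb of a called member, 6 of 94 (6.38%) were called in the member's direction in Or47b1, 18 of 107 (16.8%) in Or67dGAL4 and 14 of 87 (16.1%) in fruLexA/fru4-40, where 9.97% to 15.5% of all tested genes were called in 1 direction. By arm, 2R was singled out after the values were seen. On it, 4 of the 7 tested members were called higher and 0 lower in Or47b1. In Or67dGAL4, 4 of these were higher and 1 lower, and in fruLexA/fru4-40 1 was higher and 0 lower. Of all tested genes of that arm, 24.2%, 31.3% and 32.1% were called in either direction. On 3R, 2 of 19 tested members were higher in Or47b1 and 2 lower, against 19.2% of all tested genes called in either direction. On 2L, 2 of 14 were higher and 1 lower, against 20.9%.

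Other surface proteins of neuronal recognition also differed between genotypes. Of a list of 44 such genes, 40 were tested. In Or47b1, 9 were higher and 5 lower (35.0%). In Or67dGAL4, 8 were higher and 9 lower (42.5%), and the fruLexA/fru4-40 samples had 5 higher and 10 lower (37.5%). The shares of all tested genes were 20.4%, 29.5% and 30.8%. With single housing edgeR called 0 and DESeq2 1, with 8 at an unadjusted p below 0.05. Their median log2 fold changes against w1118 GH were 0.11, 0.13 and -0.02 in the 3 mutants. The following genes of this list were chosen after their values were seen. Dscam4, an immunoglobulin protein of the Dscam family, was 5.54-fold lower in Or47b1 and 7.61-fold lower in fruLexA/fru4-40 (log2 fold change -2.47 ± 0.26, adjusted p = 1.8e-05 and log2 fold change -2.93 ± 0.32, adjusted p = 2.97e-05) and was at 7.44 to 8.50 RPKM in Or67dGAL4 against 7.12 to 7.19 in w1118 GH. sns, an immunoglobulin protein of muscle and kidney cell adhesion, was higher in all 3 mutants, at 5.11 to 8.15 RPKM against 2.92 to 3.49 in w1118 GH (log2 fold change 1.11 ± 0.12, adjusted p = 1.75e-05 in Or47b1).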

How the data were processed

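The deposited tables hold counts of reads per gene, not normalized, beside each gene's exon length. Before deposit the authors used FASTP for trimming and MapSplice2 for alignment against dm6. Duplicates and poorly mapped or unpaired reads were then removed, and featureCounts assigned the rest to genes. Tool versions, the annotation release and the strand setting are not given in the sources used here, and the libraries were not stranded, so reads of a gene and an overlapping antisense gene cannot be separated. Of 17490 genes, 17288 were named from the Ensembl annotation, in which 53 of the 54 members have the same position.

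Counts were fitted with edgeR 4.0.16 in R 4.3.3 (TMM scaling, filterByExpr, quasi-likelihood F test, no block) on 14 samples of all 5 groups together, with Benjamini-Hochberg adjustment over all 10358 tested genes of a comparison. A gene was called at an adjusted p below 0.05. The common biological coefficient of variation was 0.151. RPKM values used the TMM-scaled totals, and SE is the log2 fold change divided by the square root of F. For fruLexA/fru4-40 replicate 1, the RPKM used the scaling of a fit to all 15 samples. A count of 3, taken as the floor of a library, corresponds to 0.201 to 0.35 CPM (total counts 8570425 to 14908299), which covers counting error only.

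The alternatives were DESeq2 1.42.0, scaling by RLE or by totals alone, dropping the low-count filter, fitting each pair of groups by itself, blocking on replicate number, adding fruLexA/fru4-40 replicate 1 (15 samples), w1118 SH as the reference, the adjusted p times 4 at 0.01, and leaving out each sample in turn. The edgeR steps were tested on simulated data with 200 changed genes. Values are given for DIP-alpha, the members called against w1118 GH, the 5 most abundant members and some known partners of these. For some genes they are given as ranges or for part of the groups only. Of the genes sharing exons with members, levels are given for CG2875, ppk8 and CG34106. The members, lists and tests were chosen with earlier results of these data known. Tables were handled with pandas 2.3.3 and numpy 2.4.6, and figures drawn with matplotlib 3.10.9. No sequences were read, and exon usage was not analysed here.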

Additional observations from a re-analysis of the deposited data

Results flagged for a closer look

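A single level lay outside the 14 fitted samples by more than 2-fold. beat-IIIc was at 32.91 RPKM in fruLexA/fru4-40 replicate 1, the library with a quality warning that entered no comparison, where the highest of the 14 samples was 12.75. The neuronal marker elav was at 71.5 RPKM in the same library, against 16.0 to 31.7 in the others, and its part in the beat-IIIc level was not tested. With that library in the fit, beat-IIIc remained called higher in fruLexA/fru4-40 but not in Or47b1 (adjusted p = 0.0761) or Or67dGAL4 (adjusted p = 0.124). Groups of 2 or 3 samples are too small for a search for outlying samples within a group.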

How the results depend on the processing

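The counts of called members moved by more than 1.5 times in these settings. With all 15 samples they were 0 for w1118 SH, 9 for Or47b1, 7 for Or67dGAL4 and 8 for fruLexA/fru4-40, each against w1118 GH, and 2 for Or67dGAL4 against Or47b1, 4 for fruLexA/fru4-40 against Or47b1 and 2 for fruLexA/fru4-40 against Or67dGAL4. With the adjusted p times 4 below 0.01, the counts in the same order were 0, 8, 8, 6, 3, 4 and 2. With the compared groups only, they were 0 for w1118 SH, 11 for Or67dGAL4 against w1118 GH and 2 for fruLexA/fru4-40 against Or67dGAL4. Without the filter on low counts, the count for w1118 SH was 0. Leaving out each sample in turn gave 0 to 1 for w1118 SH, 11 to 15 for Or47b1, 11 to 18 for Or67dGAL4, 8 to 15 for fruLexA/fru4-40, and, between the mutants, 8 to 13, 9 to 16 and 2 to 7. RLE size factors, total counts and DESeq2 left all 7 counts within 1.5 times.

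A few single differences changed sign. DIP-alpha in fruLexA/fru4-40 against Or67dGAL4, which was not called, was -0.0195 with RLE size factors, -0.0207 with DESeq2, and -0.0899 to 0.16 when samples were left out. With all 15 samples, log2 fold changes turned to 0.0812 for beat-VII and 0.087 for side in fruLexA/fru4-40 against Or67dGAL4, to 0.0608 for dpr1, 0.0378 for dpr2 and 0.0034 for side-VI against Or47b1, and to 0.0146 for dpr11 against w1118 GH. None of these was called there, and the cause was not tested.

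Replicate numbers were shared between groups, but nothing in the sources used here says that they mark a shared batch. Samples with the same number correlated at -0.35 to 0.36 in their deviations from the group means (26 pairs, mean 0.04). The replicate 3 samples of w1118 GH, w1118 SH, Or47b1 and Or67dGAL4 all correlated positively with one another, at 0.19 to 0.36. Replicate 3 of the fruitless mutant correlated with them at -0.193 to -0.004. Whether replicate 3 marks a shared batch was not tested, and samples were not treated as paired in the main fit. With the replicate block the counts were 1, 15, 16 and 15 against w1118 GH and 9, 12 and 4 between the mutants. Depth limits DIP-zeta, beat-Va and beat-Vb, which were too low to be tested.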
